A study of Brassica napus with 27 samples.

Results

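Gene expression in long-day leaves of oilseed rape (Brassica napus, cultivar Westar) was compared between the line bnaa06fah and Control plants, with 3 RNA sequencing libraries in each group. These 6 libraries were taken from the 27 of the series by genotype and stage in their labels. The bnaa06fah plants carry CRISPR/Cas9 null alleles of BnaA06FAH without the transgene, per the design text, while the sample labels call the genotype a knock-down. Control plants were wild type. The other libraries used here are bnaa06fah and Control leaves after 1 short day (SD1) and 2 short days (SD2), and long-day (LD) leaves of bnafah, the line altered in both BnaA06FAH and BnaC05FAH, with 3 libraries in each group. All seedlings spent 5 days on plates and 2 weeks in soil, and the labels give 16 h of light and 8 h of darkness for LD and for SD plants. The column names carry 1 line code for each genotype, so a genotype stands for 1 line. Separate plants are not stated for the replicates. Each p-value below therefore weighs a difference only against the spread among replicate libraries, which may be technical. In the main fit that spread was estimated over all 27 libraries. FAH transcripts were not analysed here and give no check of the genotypes.

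FAH is fumarylacetoacetate hydrolase, which completes the breakdown of tyrosine, and the study asks how its loss bears on programmed cell death. Brassica napus is an allotetraploid: it holds an A and a C subgenome, from ancestors related to turnip and to cabbage, and most genes have a related copy in the other subgenome. How the authors' counting treated reads shared by such copies is not given in the sources used here, so a gene's level may hold reads of its near-identical copies.

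Total counts of the 6 libraries ran from 49700646 to 58862542. On log2 CPM (counts scaled to a common library size), the correlation across genes was 0.951 to 0.965 among bnaa06fah libraries, 0.926 to 0.960 among Control libraries and 0.842 to 0.908 between the groups. Leaf genes were high in the deposited FPKM, a level scaled to gene length and library size: catalase (LOC106358221) stood at 203 to 317 in bnaa06fah and 302 to 327 in Control, and GLN2 (LOC106424972), the plastid glutamine synthetase, at 468 to 499 in bnaa06fah and 338 to 497 in Control. The seed genes BnC1, OlnB3, FAE1 and LEC1 and the flower genes AP32 and SHP1b were listed at 0 in all 6 libraries. The flower gene AP34 (LOC106431373) was at 0, 0 and 0.66 FPKM in bnaa06fah and 0.302, 0.37 and 0.435 FPKM in Control, and AG1 (LOC106373304) at 0, 0.0981 and 0.33 FPKM in bnaa06fah and 0.117, 0 and 0 FPKM in Control.

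In bnaa06fah leaves, 765 genes were higher and 1379 lower than in Control leaves, out of 72039 tested (edgeR quasi-likelihood test, Benjamini-Hochberg adjusted p under 0.05). That is 2.98% of tested genes called, 1.06% higher and 1.91% lower. The called genes were not spread evenly: of those placed on a chromosome by RefSeq's Da-Ae gene order, chromosome C8 held 717 lower and 22 higher, and chromosome A8 held 235 higher and 9 lower. Called genes made up 23.7% of those tested on C8, 11.5% on A8 and 3.52% on A9, against 0.773% to 2.66% on the other 16 chromosomes. The count of higher genes was 420 without bnaa06fah replicate 2, 496 without Control replicate 2 and 423 without Control replicate 3. DESeq2 called 3484 genes.

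**Figure D1:**
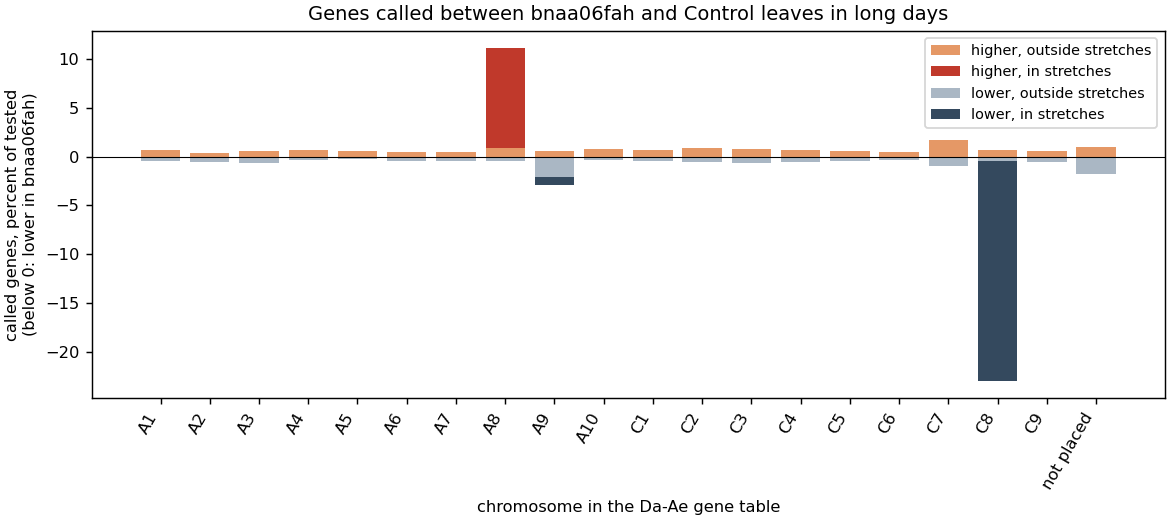
Genes called between bnaa06fah and Control leaves in long days, as percent of the tested genes of each chromosome; bars above 0 are higher in bnaa06fah and bars below 0 lower, split by whether the gene lies in a shifted stretch. C8 stands out below 0 and A8 above it, with A9 next. Genes not placed on a chromosome are drawn as outside.

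Medians over windows of 41 neighbouring tested genes marked the stretches, each at least 21 genes long with a window median beyond 0.6 on the log2 scale. They lay on A8, C8 and A9, 604, 985 and 80 genes long in all, and the other chromosomes had 0. The window and thresholds were those of earlier work on these data, chosen with results known. The stretches were found on this contrast, so their long-day values are a description.

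The long C8 stretch held 832 neighbouring genes, numbers 2116 to 2947 of the 3118 tested on that chromosome, with a median log2 fold change of -6.42. In it 627 genes were called lower and 1 higher, and 434 had no count in any of the 3 bnaa06fah libraries, against 16 with none in the 3 Control libraries. The summed level was 1213, 1289 and 1167 CPM in bnaa06fah and 11210, 10795 and 10603 CPM in Control, a ratio of 0.113. The groups lay far apart, and the libraries within each were close. In the order of genes, the last 5 before the stretch had log2 fold changes of 0.51, 0.10, 0.11, -0.64 and -0.11, and the first 5 in it -0.18, 0.43, -10.35, -3.23 and -10.83.

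Some genes inside the stretch stood near their Control level. LOC106412305 stood at 33.3, 31.4 and 26.7 CPM in bnaa06fah and 22.9, 27.5 and 25.3 CPM in Control, and LOC106368883 at 46.1, 47.2 and 50.5 CPM in bnaa06fah and 49.6, 62.0 and 58.1 CPM in Control. Neither passed the test (edgeR adjusted p = 0.689 and 0.882). The 1 gene called higher, LOC106369107, had 0.0817, 0.732 and 0 CPM in bnaa06fah and no count in Control libraries, so it rests mostly on bnaa06fah replicate 2. These genes were chosen after their values were seen.

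Beyond it, the last 153 tested genes of C8 formed a second stretch with a smaller shift, a median log2 fold change of -1.17. Of these, 77 were called lower and 0 higher, and 30 had no count in bnaa06fah libraries. Their summed level was 1880, 1930 and 1595 CPM in bnaa06fah and 4521, 4512 and 4393 CPM in Control, a ratio of 0.403.

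On A8, 511 neighbouring genes and, after 1 gene, the last 93 tested genes of the chromosome were shifted upwards, with a median log2 fold change of 0.89. The summed level was 21018, 22913 and 21893 CPM in bnaa06fah and 11839, 11727 and 10960 CPM in Control, a ratio of 1.91. Of the 604 genes, 554 had a positive fold change, 216 were called higher and 0 lower, and 401 lay between 0.5 and 1.5 on the log2 scale. Most A8 genes of the stretches thus lay in that range. The last 5 genes before the stretch had log2 fold changes of -0.34, 0.06, -0.35, 0.65 and -0.43, and the first 5 in it 1.11, 2.03, 0.70, 0.66 and 1.02.

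Summed over the A8 and C8 stretches together, the level was 24110, 26133 and 24655 CPM in bnaa06fah and 27570, 27034 and 25955 CPM in Control, a ratio of 0.93. The same ratio over all tested genes was 1.06. Chromosome A8 took 4.44% to 4.50% of counts in bnaa06fah and 3.44% to 3.55% in Control, and C8 took 3.50% to 3.56% in bnaa06fah and 4.76% to 4.81% in Control. In the authors' FPKM, over genes at 1 FPKM or more in Control, the median ratio of bnaa06fah to Control was 1.78 in the A8 long stretch, 1.72 in its end, 0.00687 in the C8 long stretch and 0.424 in its end. In the rest of A8 and C8 it was 0.927 and 0.929.

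On A9, 43 inner genes had a median log2 fold change of -5.56, with 22 called lower, and 37 genes at the end had a median of -1.36, with 11 called lower. Outside these stretches A9 still held 79 lower and 23 higher genes, more lower than higher, while its rest had a median log2 fold change of -0.05. The lower ones lay mostly towards the end of the chromosome, where the shift reached beyond the stretches. Between the inner and end stretches, blocks of 50 genes had medians of -0.33, -0.71 and -0.36, with 5, 12 and 10 genes called lower. Their medians were -0.2, -0.63 and -0.21 at SD1 and -0.47, -0.48 and -0.48 at SD2. In long-day bnafah over Control they were 0.1, -0.12 and -0.0. The inner A9 stretch was also low in bnafah: its summed level was 74, 71 and 78 CPM in bnaa06fah, 128, 152 and 147 CPM in bnafah and 237, 352 and 236 CPM in Control.

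**Figure D2:**
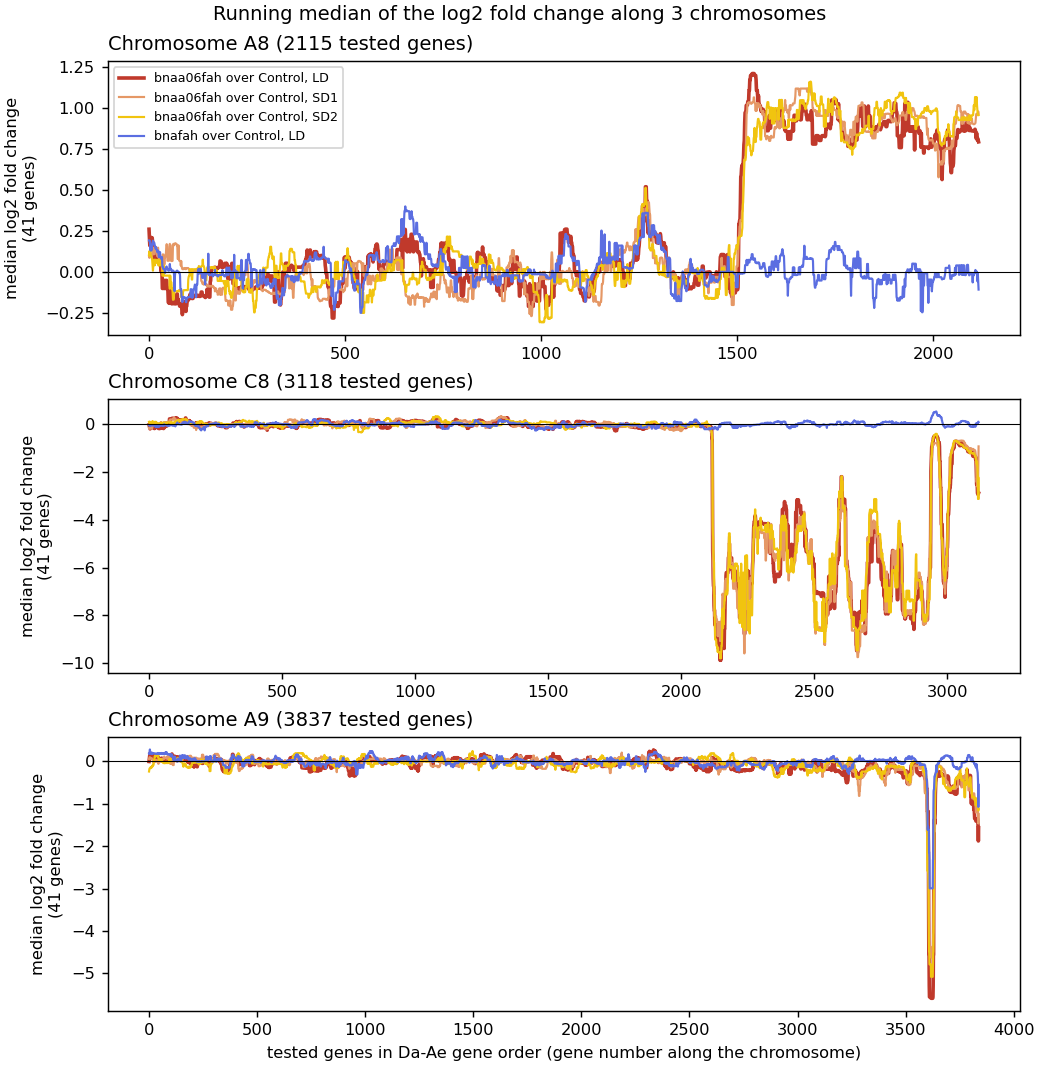
Running median of the log2 fold change over 41 neighbouring tested genes along A8, C8 and A9, in Da-Ae gene order, for bnaa06fah over Control in LD, SD1 and SD2 and for bnafah over Control in LD; each panel has its own vertical scale. The bnaa06fah lines leave 0 together near gene 1511 of A8 and gene 2116 of C8, where the bnafah line stays near 0.

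The same genes were then read in the SD1 and SD2 libraries, whose fold changes were not used to mark the stretches. Because the window and thresholds were chosen with earlier results of these data known, this reading is not wholly separate. At SD1 and SD2, 711 and 697 of the 985 C8 genes were called lower in bnaa06fah, and 216 and 212 of the 604 A8 genes higher, against 2.24% and 1.88% of all tested genes called lower and 0.823% and 0.683% called higher. Of the 80 A9 genes, 29 were called lower at each stage. The summed A8 level was 1.88 times Control at SD1 and 1.98 times at SD2, and the C8 level 0.187 and 0.193 times. The bnaa06fah to Control difference in the stretches was thus seen at all 3 stages.

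Set against bnafah, a comparison that shares the bnaa06fah libraries with the one that marked the stretches, bnaa06fah had 698 of the C8 genes lower and 199 of the A8 genes higher, where 1.65% of all tested genes were called lower and 0.486% higher. The summed level of the A8 stretches was 21018, 22913 and 21893 CPM in bnaa06fah and 12857, 10845 and 11878 CPM in bnafah. That of the long C8 stretch was 1213, 1289 and 1167 CPM in bnaa06fah and 11478, 10494 and 11571 CPM in bnafah. All bnaa06fah libraries lay outside the range of the bnafah libraries in both.

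**Figure D3:**
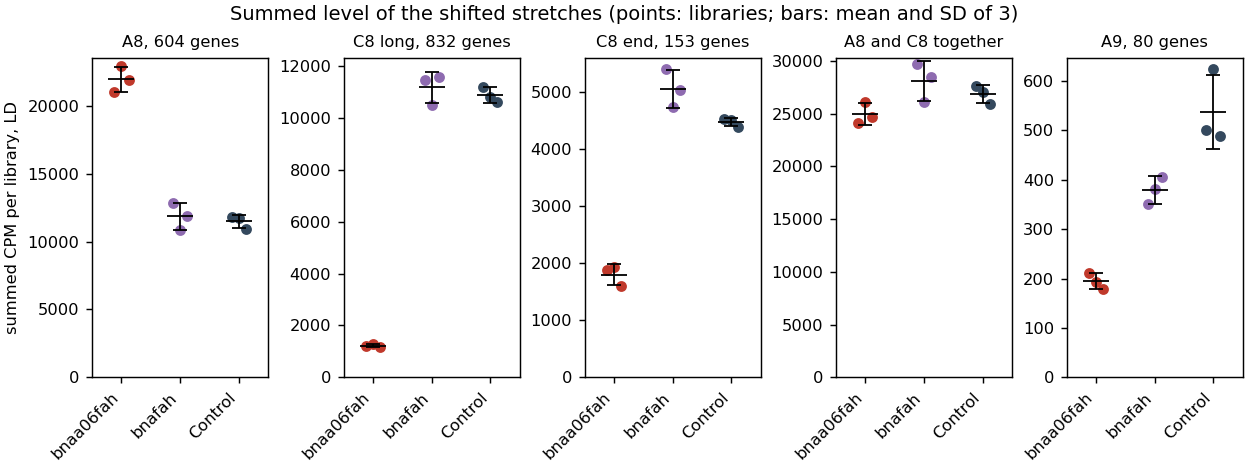
Summed CPM of the genes of each stretch in every long-day library of bnaa06fah, bnafah and Control; points are libraries, and bars are the mean and SD of 3. In bnaa06fah the A8 sum lies above and the C8 sums below both other groups, while the sum of A8 and C8 differs less.

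Only 410 tested genes carry a name, and of these 3 were called higher and 8 lower, 2.68% of the named genes. The clearest lay in the stretches. Groups without overlap were common: of all 72039 tested genes, 7381 had every bnaa06fah library above every Control library, and 8490 had the reverse. BSK2 (LOC106416337, C8), a kinase that relays the brassinosteroid signal from its receptor in Arabidopsis, had no count in the 3 bnaa06fah libraries and 8.66, 11.5 and 9.91 CPM in Control. No Control library came near 0, and the level was at least 165-fold lower in bnaa06fah, taking 3 counts per library as the floor (edgeR adjusted p = 2.13e-12). BSK1 (LOC106357949, C5), of the same kinase family, stood at 29.7, 33.9 and 26.8 CPM in bnaa06fah and 26.7, 22.8 and 25.8 CPM in Control (adjusted p = 0.468).

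CPK10.1 (LOC106368892, C8), a calcium-dependent protein kinase, stood at 1.39, 1.00 and 1.04 CPM in bnaa06fah and 9.19, 7.58 and 7.50 CPM in Control. All bnaa06fah libraries lay below all Control libraries, a log2 fold change of -2.82 ± 0.34 (SE; edgeR adjusted p = 2.86e-06).

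TOC33 (LOC106377345, at the end of C8), a receptor that takes proteins into chloroplasts, stood at 16.3, 9.80 and 16.0 CPM in bnaa06fah and 47.8, 76.2 and 64.5 CPM in Control. The groups did not overlap, and the log2 fold change was -2.16 ± 0.30 (edgeR adjusted p = 2.97e-05). CKX6-2 (LOC106415860, C8), a cytokinin-degrading oxidase, lay in the same direction at -1.77 and did not pass (adjusted p = 0.067), nor did PCNA (LOC106420145, C8), the sliding clamp of DNA replication, at -1.12 (adjusted p = 0.456).

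GAPDH.1 (LOC106382350, A8), a glyceraldehyde-3-phosphate dehydrogenase, stood at 204, 216 and 190 CPM in bnaa06fah and 111, 88.2 and 94.3 CPM in Control. Every bnaa06fah library exceeded every Control library, a log2 fold change of 1.06 ± 0.18 (edgeR adjusted p = 0.000403). GAPDH.2 (LOC106450737), which lies on C5, stood at 259, 298 and 227 CPM in bnaa06fah and 412, 288 and 265 CPM in Control, with overlapping groups (adjusted p = 0.642). NAC7.1 (LOC106360244, A8), a NAC transcription factor, was at 0.301 CPM in bnaa06fah and 0.318 CPM in Control on average, and its log2 fold change was -0.08. BSK2, CPK10.1, TOC33 and GAPDH.1 were called in the same direction at SD1 and SD2 and kept their long-day calls under all 14 alternatives.

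**Figure D4:**
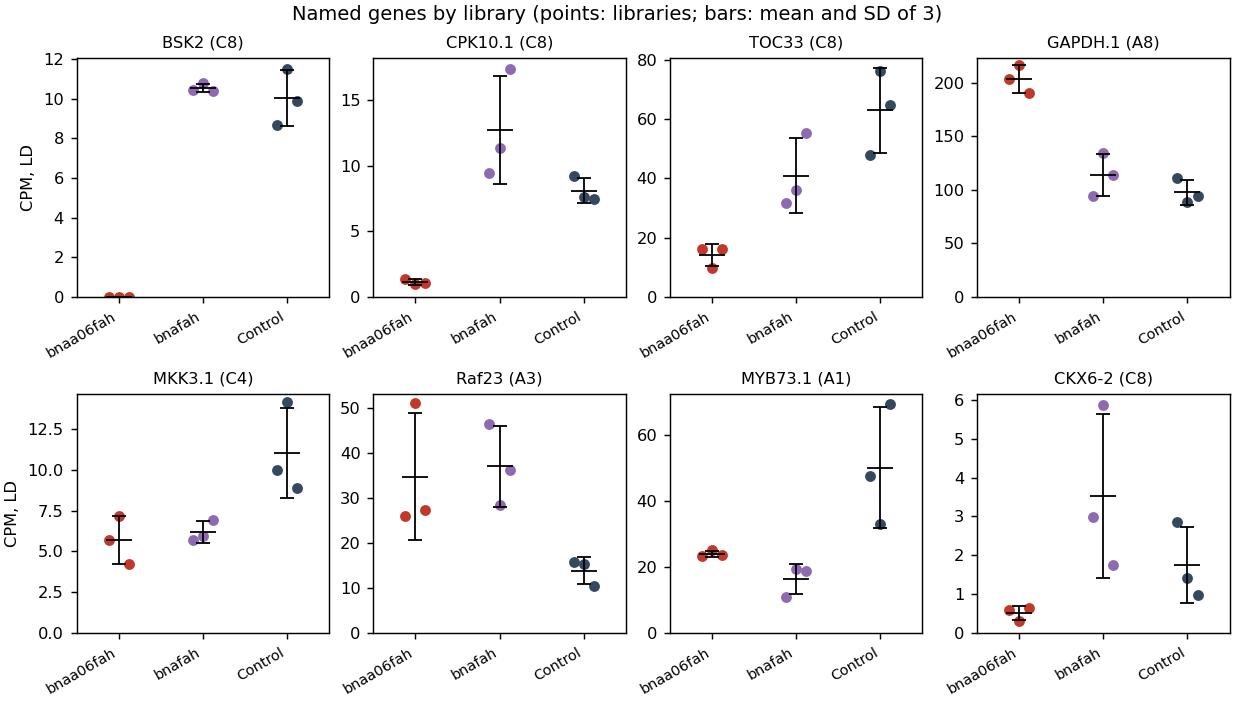
CPM of 8 named genes in the long-day libraries of bnaa06fah, bnafah and Control; points are libraries, and bars are the mean and SD of 3. In BSK2, CPK10.1, TOC33 and GAPDH.1 the bnaa06fah libraries lie apart from the libraries of both other groups.

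Among kinases of mitogen-activated cascades, which pass signals from receptors to transcription factors, 1 of 35 tested was higher and 1 lower, against 1.06% higher and 1.91% lower of all tested genes. MKK3.1 (LOC106391030, C4), a kinase kinase, stood at 5.70, 7.15 and 4.20 CPM in bnaa06fah and 10.01, 14.1 and 8.90 CPM in Control, a log2 fold change of -0.95 (edgeR adjusted p = 0.0217). Raf23 (LOC106437717, A3), a Raf-like kinase, stood at 25.8, 50.9 and 27.2 CPM in bnaa06fah and 15.7, 15.4 and 10.4 CPM in Control, a log2 fold change of 1.33 (adjusted p = 0.0365). Neither gene had overlapping groups, and bnaa06fah replicate 2 was the highest for Raf23. Raf21 (LOC106401846) had a log2 fold change of 0.68 (adjusted p = 0.0687). MKK3.1 lost its call without bnaa06fah replicate 1 or 3 or Control replicate 2, and Raf23 without bnaa06fah replicate 2 or any Control replicate. Both lost it with the 6 libraries fitted alone and in both FPKM fits, and Raf23 also with a replicate block. Over 14 alternatives their highest adjusted p (edgeR or limma) was 0.165 and 0.326. At SD1 and SD2 the log2 fold change of Raf23 was 0.07 and 0.38, and the difference from long days did not pass (edgeR adjusted p = 0.648 and 0.607). MKK3.1 was at -0.65 at SD1 and at -1.05 at SD2, called lower at SD2 only (edgeR adjusted p = 0.198 and 0.0102). In bnafah over the same long-day Control libraries, MKK3.1 was at -0.83 and Raf23 at 1.42 (edgeR adjusted p = 0.141 and 0.069).

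MYB73.1 (LOC106426812, A1), a MYB transcription factor, stood at 23.5, 25.1 and 23.7 CPM in bnaa06fah and 47.7, 33.2 and 69.5 CPM in Control, a log2 fold change of -1.06 (edgeR adjusted p = 0.049), with the Control libraries wide apart. It lost that call with any 1 bnaa06fah replicate or Control replicate 1 or 3 left out, with the 6 libraries alone, in both FPKM fits, with a replicate block and with no filter on low counts, and its adjusted p reached 0.339 over the alternatives. It was the 1 called of 14 MYB genes, where 2.98% of all tested genes were called. MYB44 (LOC106358308) had 8.80, 8.01 and 18.5 CPM in bnaa06fah and 31.1, 10.1 and 64.4 CPM in Control (adjusted p = 0.102). WRKY70 (LOC106367975), a transcription factor of salicylate responses in Arabidopsis, had 22.3, 34.9 and 16.7 CPM in bnaa06fah and 51.8, 34.6 and 101 CPM in Control (adjusted p = 0.0909). For MYB44 and WRKY70 the groups overlapped, and Control replicate 3 was the highest library for all 3 genes. At SD1, MYB44 and WRKY70 were called lower in bnaa06fah, with log2 fold changes of -2.50 and -2.61 (edgeR adjusted p = 0.0038 and 0.00029), and at SD2 they were at -1.25 and -0.77 (adjusted p = 0.296 and 0.523). The difference of SD1 from long days did not pass for MYB44 or WRKY70 (edgeR adjusted p = 0.893 and 0.733). MYB73.1 was at -0.27 at SD1 and -0.4 at SD2 and was not called (edgeR adjusted p = 0.831 and 0.709). Its differences from long days did not pass either (edgeR adjusted p = 0.79 and 0.676). In bnafah over the same long-day Control libraries, the log2 fold change was -1.61 for MYB73.1, -2.80 for MYB44 and -1.38 for WRKY70 (edgeR adjusted p = 0.00529, 0.00624 and 0.175).

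The other 4 named genes called were at under 5 CPM in both groups and were chosen after their values were seen. NAC13-1.1 (LOC106397080), a NAC factor, averaged 0.403 CPM in bnaa06fah and 1.62 CPM in Control, ATHB-12 (LOC106345588), a homeodomain-zipper factor, 0.205 CPM in bnaa06fah and 1.03 CPM in Control, and WRI1 (LOC106412050), a regulator of fatty acid synthesis in Arabidopsis, 1.17 CPM in bnaa06fah and 2.61 CPM in Control. BnLIP2 (LOC106358067) averaged 0.271 CPM in bnaa06fah and had no count in Control. NAC13-1.1 lost its call without bnaa06fah replicate 2 or 3 or Control replicate 1, ATHB-12 without bnaa06fah replicate 1 or 2 or Control replicate 2 or 3, WRI1 without bnaa06fah replicate 1 or 2 or any Control replicate, and BnLIP2 with any 1 library left out (highest adjusted p, edgeR or limma, 0.21, 0.162, 0.217 and 0.145 over the alternatives). All 4 lost it in both FPKM fits, NAC13-1.1, ATHB-12 and WRI1 also with the 6 libraries alone, and WRI1 also with a replicate block and with no filter on low counts.

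In 22 of the 28 gene lists edgeR called 0 of the tested members, 229 genes in all. Of these, 22 (9.61%) were at an unadjusted p under 0.05, against 10072 of all 72039 tested genes, and DESeq2 called genes in 4 of these lists. Of 23 genes on the abscisic acid and carotenoid list, which holds enzymes and response factors, 21 had a positive fold change. Their median was 0.26 on the log2 scale, against 34433 of all 72039 tested genes positive (47.8%) and a median of -0.02. The summed level of the list was 1030, 1230 and 1020 CPM in bnaa06fah and 1000, 856 and 717 CPM in Control. The phytoene synthase gene BnaC.PSY.a (LOC106387714), which opens carotenoid synthesis, stood at 122, 131 and 120 CPM in bnaa06fah and 113, 78.7 and 64.0 CPM in Control, a log2 fold change of 0.54 (edgeR adjusted p = 0.16). ABF4-2.1 (LOC106363379), a factor of abscisic acid responses, stood at 15.7, 18.5 and 16.5 CPM in bnaa06fah and 10.8, 9.80 and 13.3 CPM in Control (adjusted p = 0.111). Neither gene had overlapping groups, and neither passed. The same lack of overlap, with bnaa06fah above, held for 7381 of all 72039 tested genes. At SD1 and SD2 the log2 fold change was 0.24 and 0.16 for BnaC.PSY.a and -0.03 and 0.05 for ABF4-2.1. Of 14 phenylpropanoid and flavonoid genes, 8 nitrogen assimilation genes, 26 lipid synthesis genes and 23 transporter genes, 0 were called, with 3, 0, 3 and 2 at an unadjusted p under 0.05, as were 10072 of all 72039 tested genes.

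Hsc70 (LOC106361615), a chaperone that helps proteins fold, stood at 105, 81.5 and 103 CPM in bnaa06fah and 267, 169 and 200 CPM in Control, a log2 fold change of -1.13 (edgeR adjusted p = 0.0981). All bnaa06fah libraries were below all Control libraries, as in 8490 of all 72039 tested genes, and DESeq2 called 1 gene in the chaperone list. MyAP1 (LOC106348442), a myrosinase-associated protein of the glucosinolate defence, stood at 8.27, 10.4 and 56.7 CPM in bnaa06fah and 83.4, 82.9 and 196 CPM in Control (adjusted p = 0.312). Of 8 genes on that list 7 had a negative fold change, with a median of -0.99 on the log2 scale, against 51.5% of all tested genes and a median of -0.02. Of the 8, 0 were called and 1 was at an unadjusted p under 0.05. Another list with 0 called, cell wall, had 11 of 12 genes negative. Over the 229 genes of all lists with 0 called, 50.7% were negative. The photoreceptor gene cry1 (LOC106429586) stood at 135, 175 and 150 CPM in bnaa06fah and 108, 115 and 102 CPM in Control (adjusted p = 0.299). At SD1 and SD2 the log2 fold change was -0.81 and 0.07 for Hsc70, 1.53 and -0.54 for MyAP1, and 0.17 and -0.08 for cry1. None of these was called at SD1 or SD2.

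Markers of other cell types and organs gave no call. Of 5 vascular markers 0 were called, with a summed level of 46.8, 71.5 and 46.0 CPM in bnaa06fah and 61.9, 35.9 and 36.8 CPM in Control. The sum does not stand for each marker: 4 had a negative log2 fold change and 1 a positive one, at 0.94, with a median of -0.3. Of 10 flower and pollen markers 2 could be tested, at 0 to 1.02 CPM summed in bnaa06fah and 0.311 to 0.436 CPM in Control, and of 13 seed markers 2, at 27.4 to 41.8 CPM in bnaa06fah and 31.4 to 49.2 CPM in Control. Nearly all of the seed sum came from CLO3 (LOC106375853), at 30.6, 26.6 and 40.9 CPM in bnaa06fah and 31.1, 46.0 and 49.1 CPM in Control. Whether CLO3 is particular to seed was not tested. The seed genes BnC1, OlnB3, FAE1 and LEC1 were at 0 FPKM, so the sum is not read as a seed signal. Plastid-encoded genes took 0.00206% to 0.00302% of counts in bnaa06fah and 0.00154% to 0.00285% in Control. Mitochondrion-encoded genes took 0.0052% to 0.00813% in bnaa06fah and 0.00495% to 0.0105% in Control. Of their 29 and 22 tested genes, 0 and 0 were called, with 0 and 0 at an unadjusted p under 0.05.

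Outside the stretches, with genes not placed on a chromosome counted in, 548 were called higher and 642 lower, 0.779% and 0.912% of those tested there. These counts moved when a library was left out, which also makes its group smaller, and the cause was not tested. There were 265 higher without bnaa06fah replicate 2, 336 without Control replicate 2 and 275 without Control replicate 3. Without bnaa06fah replicate 2, 389 were lower. Without Control replicate 1 the balance turned, with 670 higher and 544 lower. The median log2 fold change of the called genes was 1.91 and -2.91. Among genes placed outside the stretches, 382 (0.71%) were called higher and 345 (0.642%) lower, with medians of 1.92 and -1.92. Among genes not placed on a chromosome, 166 (1.0%) were called higher and 297 (1.79%) lower, with medians of 1.82 and -5.77. Whether the genes not placed belong to the stretches is unknown. Most called genes have no name. LOC106429769 stood at 32.5, 31.3 and 22.4 CPM in bnaa06fah and 0.508, 0.580 and 1.29 CPM in Control, and LOC106406731 at 0.613, 0.418 and 0.212 CPM in bnaa06fah and 34.9, 18.7 and 16.6 CPM in Control (edgeR adjusted p = 0.000134 and 8.57e-10). The groups did not overlap in either, and neither gene was matched to a chromosome. LOC106429769 was not called at SD1 or SD2 (edgeR adjusted p = 0.172 and 0.122) and stood at 30.82, 16.8 and 2.539 CPM in long-day bnafah. LOC106406731 was called lower at both stages (edgeR adjusted p = 6.49e-10 and 2.33e-10) and stood at 34.85, 32.26 and 33.96 CPM in long-day bnafah.

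Of the genes higher in long days outside the stretches, 203 of 548 (37.0%) were also called higher at SD1 and 168 at SD2. Of the lower ones, 356 of 642 (55.5%) were also called lower at SD1 and 334 at SD2, and 0 genes were called the other way. These counts include genes not placed on a chromosome. For higher genes the SD1 share was 30.6% of the 382 placed and 51.8% of the 166 not placed. For lower genes it was 41.4% of the 345 placed and 71.7% of the 297 not placed. At SD1, 0.823% of all tested genes were called higher and 2.24% lower. In the stretches 705 of 737 lower genes and 158 of 217 higher genes were called alike at SD1. Between the long-day and SD1 changes edgeR called 2 genes, 0.00278% of those tested (4708 at an unadjusted p under 0.05, and 206 with DESeq2), and between the long-day and SD2 changes 0 (6185 at an unadjusted p under 0.05, and 149 with DESeq2). A missing call at one stage thus does not show that the stages differed.

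**Figure D5:**
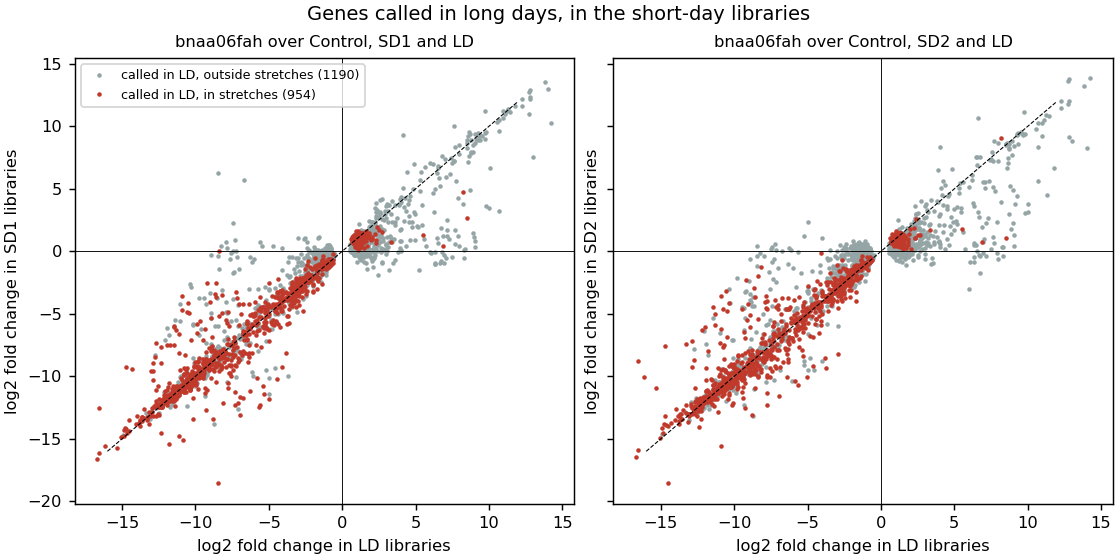
Log2 fold change of bnaa06fah over Control in LD (horizontal) against SD1 and SD2 (vertical) for genes called in LD, 954 in the shifted stretches and 1190 outside them or not placed. The dashed line marks equal change. Most genes in the stretches lie near the line, and some called outside lie nearer to 0 in short days.

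A further count took genes with no count in the 3 bnaa06fah libraries and at least 10 counts in each Control library. There were 573, of which 354 lay in the C8 stretches, 15 in the A9 stretches, 0 in the A8 stretches and 84 elsewhere on a chromosome, while 120 were not placed. In Control their mean count had a median of 127. Of the 573, 482 had no count in bnaa06fah at SD1 either and 487 at SD2, and 463 had at least 10 counts in each bnafah long-day library. The reverse, no count in Control and at least 10 in each bnaa06fah library, held for 88 genes, 4 of them in the A8 stretches and 0 in the C8 stretches.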

How the data were processed

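The deposited table holds counts per gene, made by the authors and not scaled to library size. A second deposited table holds FPKM, made by the authors by a method not stated. The submitters' processing notes name Trim Galore for trimming and HISAT2 for alignment, with versions, genome build and counter not given in the sources used here. Per the labels, leaf RNA was extracted with TRIzol and libraries were made with TruSeq v2. An entry that names no gene was left out and held at most 2.46e-05% of the counts of these 6 libraries. Of 119532 gene entries, 85836 matched RefSeq's gene table for Da-Ae, used for names and gene order, and 480 had a name.

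edgeR 4.0.16 in R 4.3.3 fitted all 27 libraries (quasi-likelihood, robust, TMM factors, filter by group, 18 residual degrees of freedom). Adjusted p-values are Benjamini-Hochberg over all 72039 tested genes, with a threshold of 0.05, and CPM uses TMM-scaled library sizes. Alternatives were DESeq2 1.42.0, limma 3.58.1 on log2(FPKM + 0.1) or log2(FPKM + 1), other size factors and filters, a fit of the 6 libraries alone, a replicate block, other windows and each library left out. A called gene with a name was described where its higher group reached 5 CPM and the libraries of the groups did not overlap, with up to 4 genes per list. The members and lists were chosen with earlier results of these data known, and the symbols of each list were resolved, and a few taken out again, after values were seen.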

Additional observations from a re-analysis of the deposited data

Results flagged for a closer look

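In 2 genes the bnaa06fah change differed between SD1 and long days, by edgeR's interaction test. The long non-coding RNA gene LOC111210049 (C9) differed by 8.66 on the log2 scale (adjusted p = 0.00559): it had no count in the 3 bnaa06fah long-day libraries against 0.581, 0.394 and 0.704 CPM in Control, and at SD1 0.212, 0.565 and 0.308 CPM in bnaa06fah against 0.25, 0.138 and 0.27 CPM in Control. LOC106415655, in the long C8 stretch, differed by -6.86 (adjusted p = 0.00559): it stood at 0.245, 0.167 and 0.289 CPM in bnaa06fah against 6.83, 7.02 and 8.71 CPM in Control in long days, and had no count in bnaa06fah at SD1. Both depend on levels near 0.

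Between the lines in long days, bnaa06fah differed from bnafah in BSK2 by -12.17 on the log2 scale (a fitted value, since bnaa06fah had no count), CPK10.1 by -3.47, TOC33 by -1.54 and GAPDH.1 by 0.84 (edgeR adjusted p = 1.9e-12, 1.52e-07, 0.00216 and 0.00624).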

How the results depend on the processing

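None of the 11 named genes called in long days changed sign under the alternatives run. Some uncalled genes did, such as NAC7.1 (LOC106360244) with a log2 fold change of 0.33 without Control replicate 3, and outside the stretches the balance of calls turned without Control replicate 1 (670 higher, 544 lower). In long days DESeq2 called 3484 genes, 1433 of them higher, and outside the stretches 1170 higher and 1269 lower. With limma on log2(FPKM + 0.1) and log2(FPKM + 1), 472 and 446 genes were higher, 138 and 137 of the A8 stretches and 333 and 308 outside the stretches. Leaving out each library gave 420 to 847 higher genes in all, and outside the stretches 265 to 670 higher and 389 to 558 lower. The lowest counts came without bnaa06fah replicate 2. The calls in the C8 stretches (644 to 679) and A9 stretches (23 to 30) and the lengths of the stretches on A8, C8 and A9 stayed within 1.5 times. The cause of these moves was not tested.

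With a replicate block 2026 genes were called, 690 higher and 1336 lower. Deviations of libraries with the same number correlated at -0.087, 0.044 and 0.315, so the numbers were not taken as pairs, and bnaa06fah replicate 2 correlated best with Control replicate 1.

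The list calls rest on few genes. Over all lists DESeq2 called 15 genes, and leaving out a library gave 5 to 8. The 6 libraries alone gave 1 call each in the phenylpropanoid, chaperone and lipid lists and 0 in the mitogen-activated, NAC and MYB lists. DESeq2 gave 1 in the chaperone, salicylate, abscisic acid and WRKY lists and 2 in the calcium, NAC and MYB lists. Each FPKM fit gave 1 in the chaperone, mitogen-activated and plastid lists and 0 in the NAC and MYB lists, and that with a pseudocount of 1 gave 1 in the WRKY list. The block gave 1 in the mitogen-activated and 0 in the MYB list, and no filter 0 in the MYB list. Leaving out a library gave 0 to 1 in the salicylate, abscisic acid, WRKY and NAC lists and 0 to 2 in the mitogen-activated and MYB lists.

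At SD2 DESeq2 called 2822 genes. For the SD1 and SD2 differences from long days it called 206 and 149, and the libraries of the SD1 contrast alone gave 5. Between bnafah and Control in long days the main count was 470, against 130 with those libraries alone and 1206 with DESeq2. Of the values of single named genes under the alternatives, 55 lost a call, 23 gained one and the rest kept their side. Depth limits genes near 0, where a fold is a bound.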
